A study of Mus musculus with 4 samples.

Results

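The genes described here encode matrix glycoproteins and the lysyl oxidases that crosslink collagen. The members are Fn1, Sparc, Tnc, Thbs1, Fbln1, Fbln2, Lox, Loxl1, Loxl2 and Loxl4, chosen by gene symbol, and all 10 were found among the 24444 genes of the deposited table. The 4 libraries hold poly(A) RNA of oesophageal cells cultured from C57BL/6J mice. In 2 libraries the cells were labelled heterozygous for Nfe2l2-E79Q, made by CRISPR/Cas9 microinjection. The other 2 were wild type, with no cassette and no treatment. Nfe2l2 encodes NRF2, the transcription factor of the antioxidant response, and E79Q is a tumour-derived substitution in it. The series describes a conditional mouse; how the allele was switched on in these cells, the sex of the animals and how many animals gave cells were not stated in the labels. The names of all columns carry the word SV40, which the labels do not explain. Nothing says whether libraries of 1 group came from separate cultures or animals, so p-values cover only spread between these libraries. Most of that spread is estimated over all tested genes rather than from the gene itself.

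Fibronectin, tenascin C, thrombospondin 1 and the fibulins are secreted proteins that cells assemble around themselves and bind through integrins and syndecans. Lysyl oxidases oxidise lysine side chains in collagen and elastin, which then join into covalent crosslinks that stiffen the matrix. In a stratified epithelium such as the oesophagus most fibrillar matrix is made by stromal cells, while keratinocytes in culture, and in healing wounds, also make fibronectin and tenascin C.

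Markers of squamous epithelium were present in both genotypes, at levels that differed widely between markers. All 12 markers on that list passed the filter on low values. Krt5, a keratin of basal cells, lay at 15.79 and 15.84 in E79Q cells and at 15.85 and 15.80 in wild-type cells. These values are on the deposited log2-like scale, with its floor at 6.98. Krt4, on the same list, lay at 8.52 and 8.56 in E79Q cells and at 8.67 and 8.62 in wild-type cells. Xist, the RNA of X inactivation, lay at 7.30 and 7.12 in E79Q libraries and at 11.99 and 12.17 in wild-type libraries, while Ddx3y, a Y-linked gene, lay at 10.05 and 10.19 in E79Q and at 9.65 and 9.51 in wild type. Both groups thus held Y-linked RNA, and only the wild-type libraries held much Xist; any effect of this difference cannot be told apart from that of genotype. Nqo1, a classical NRF2 target, lay at 10.88 and 10.87 in E79Q cells and at 8.64 and 8.65 in wild-type cells, so the 2 groups were well apart for a target of the mutated factor. The normalised counts recovered from the deposited values sum to between 13.5 and 13.9 M per library; the number of reads sequenced is not held in normalised values.

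Proximal promoters are shown for 4 of the genes because they carry the contrasts described below: Sparc and Tnc were among the steepest falls, and the fibulin genes Fbln2 and Fbln1 moved in opposite directions. The sequences are the 250 bases before an annotated transcription start in RefSeq, build GRCm38.p6, 5′ to 3′ on the strand of the gene. The submitters' build was mm9, so these coordinates belong to the sequences and not to the deposited values. Capitals mark 2 motifs on either strand. One is TATANA, known as the TATA box. The other, known as the GC box, is GGGCGG. The Sparc window is chr11:55420081-55420330 on the minus strand and the Tnc window chr4:64046937-64047186 on the minus strand. The Fbln2 window is chr6:91212514-91212763 and the Fbln1 window chr15:85205758-85206007, both on the plus strand.
Sparc: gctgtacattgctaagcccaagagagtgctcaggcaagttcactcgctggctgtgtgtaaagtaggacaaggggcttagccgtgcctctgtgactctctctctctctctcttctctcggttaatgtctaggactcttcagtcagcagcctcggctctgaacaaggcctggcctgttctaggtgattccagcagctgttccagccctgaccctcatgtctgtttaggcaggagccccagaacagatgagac
Tnc: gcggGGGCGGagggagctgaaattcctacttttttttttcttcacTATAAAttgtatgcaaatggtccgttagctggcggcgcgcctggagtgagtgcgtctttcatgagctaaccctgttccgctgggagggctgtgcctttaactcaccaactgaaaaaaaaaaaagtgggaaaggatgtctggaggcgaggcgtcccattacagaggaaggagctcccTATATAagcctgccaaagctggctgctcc
Fbln2: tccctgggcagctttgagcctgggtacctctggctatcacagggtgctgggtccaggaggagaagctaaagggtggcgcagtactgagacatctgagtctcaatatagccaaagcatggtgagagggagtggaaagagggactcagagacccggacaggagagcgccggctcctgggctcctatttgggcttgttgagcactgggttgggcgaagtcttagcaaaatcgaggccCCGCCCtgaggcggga
Fbln1: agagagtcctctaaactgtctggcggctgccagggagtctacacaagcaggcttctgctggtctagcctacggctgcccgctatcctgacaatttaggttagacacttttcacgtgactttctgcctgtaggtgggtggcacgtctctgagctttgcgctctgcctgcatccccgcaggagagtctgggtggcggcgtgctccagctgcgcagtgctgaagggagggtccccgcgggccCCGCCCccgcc
The Tnc window holds a TATANA match that begins 29 bases before the start, and the Sparc window holds neither motif. In both fibulin windows a GC box lies close to the start, at 16 bases before it in Fbln2 and 11 in Fbln1. The table gave 7 windows for 5 of the members: Sparc, Tnc, Fbln1, Fbln2 and Loxl4. None of the 7 windows held TGACNNNGC, the core of the antioxidant response element to which NRF2 binds, or TGANTCA, the AP-1 motif, on either strand; 10.2% and 6.75% of all 32851 RefSeq windows of this length held these motifs. TATANA occurred in 2 of the 7 windows, both of Tnc, against 22.6% of all windows, and GGGCGG in 5 of 7 against 32.7%. The 2 Tnc windows overlap each other, as do the 2 Fbln1 windows. The Fbln1 window not shown held neither TATANA nor GGGCGG. In the Tnc window not shown, TATANA began 126 bases before that start.

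Transcripts of the matrix glycoproteins and lysyl oxidases were lower in E79Q cells, with Fbln1 as the exception. Of the 10 genes, 9 were called lower and 1 higher (limma, Benjamini-Hochberg adjusted p under 0.05), against 18.9% of 10685 tested genes called lower and 21.5% called higher. These genes and the related lists below were chosen with earlier results of these data known, so the background shares give context only. The median difference, E79Q minus wild type, was -0.79 over the 10 genes and 0.01 over all tested genes. Differences are on the deposited variance-stabilised log2 scale, ± the moderated SE over 2 replicate pairs, which draws mostly on the spread of all tested genes. Because that scale compresses genes near its floor, ratios of normalised counts, recovered by inverting the stabilisation, are given beside them. Loxl1 and Loxl2 passed the filter on low values only through the wild-type libraries, so their entry into the test already required a higher wild-type level. With no filter all 10 genes were tested, and again 9 were called lower and 1 higher, against 11.2% and 12.3% of 16324 genes. The groups did not overlap in any of the 10 genes, as was also so in 79.4% of tested genes; in values centred by pair this means only that both pairs differ in the same direction.

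**Figure D1:**
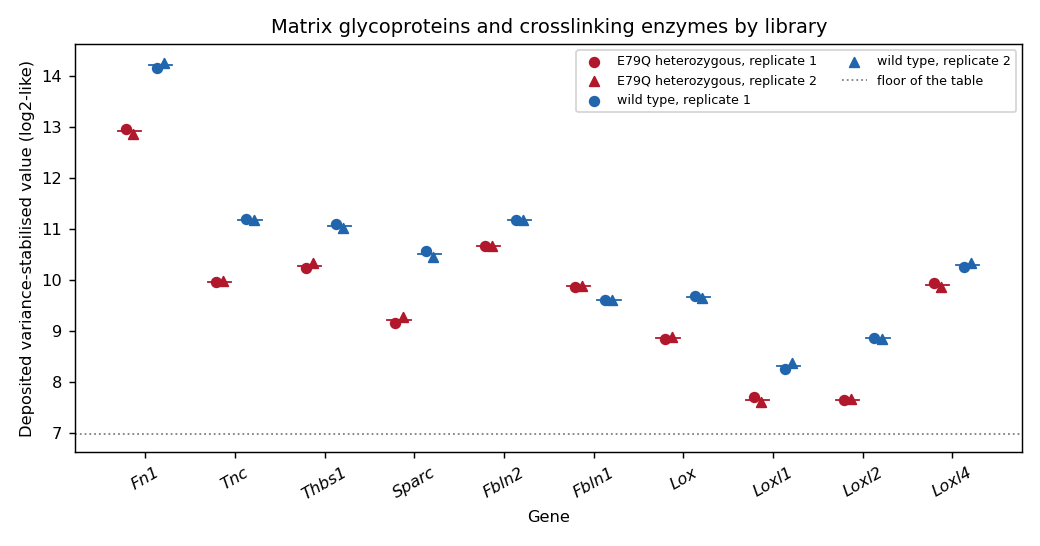
Deposited variance-stabilised value (log2-like, y axis) of each gene (x axis) in the E79Q heterozygous libraries (left, red) and the wild-type libraries (right, blue); circles are replicate 1, triangles replicate 2, short lines group means and the dotted line the floor of the table at 6.98. In 9 genes both red points lie below both blue points, and in Fbln1 both lie above; Loxl1 and Loxl2 in E79Q cells lie nearest to the floor.

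Fn1, which encodes fibronectin, a ligand of integrins and the scaffold on which other matrix proteins assemble, was the most abundant of these transcripts. It lay at 12.97 and 12.86 in E79Q cells and at 14.16 and 14.26 in wild-type cells. As normalised counts these are 7753 and 7184 in E79Q cells, against 18025 and 19424 in wild-type cells. The genotypes were far apart, with Fn1 lower in E79Q cells in both pairs (differences of -1.19 and -1.40). The fall was 1.30 ± 0.05 on the log2 scale (limma adjusted p = 1.58e-10), a 2.51-fold lower mean normalised count. Of the 10685 tested genes only 12, Fn1 included, had a difference as low or lower. Fn1 alone made up 59.9% and 57.6% of the summed normalised counts of the 10 genes in E79Q libraries, and 64.7% and 66.8% in wild-type libraries.

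Tnc encodes tenascin C, a large glycoprotein that is induced in wounds and tumours and that modulates adhesion to fibronectin. It lay at 9.96 and 9.97 in E79Q cells and at 11.18 and 11.18 in wild-type cells. The 2 pairs gave differences of -1.22 and -1.21, a gap of 0.01. Over all tested genes the median gap between pairs was 0.08; the gap was smaller than this in Tnc, Fbln1, Fbln2, Lox and Loxl2, and larger in Fn1 (0.21), Sparc (0.26), Thbs1 (0.19), Loxl1 (0.21) and Loxl4 (0.16). Tnc thus fell by 1.22 ± 0.05 (limma adjusted p = 3.09e-10) to a 2.72-fold lower normalised count.

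Sparc encodes osteonectin, a collagen-binding glycoprotein that takes part in collagen assembly. Its normalised counts were 343 and 393 in E79Q libraries and 1276 and 1148 in wild-type libraries. The difference was -1.29 ± 0.07 (limma adjusted p = 2.54e-09), a 3.29-fold lower normalised count. The 2 pairs gave -1.42 and -1.16, the widest gap among the 10 genes (0.26) and close to the 95th percentile of all tested genes (0.264).

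Thbs1 encodes thrombospondin 1, a glycoprotein that activates latent TGF-beta and binds CD47. It lay at 10.23 and 10.32 in E79Q cells and at 11.10 and 11.01 in wild-type cells, and it fell by 0.78 ± 0.06 (limma adjusted p = 1.04e-07), 1.88-fold by normalised counts. The fall was seen in both pairs and was smaller than that of Fn1, Sparc or Tnc.

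The 2 fibulin genes, whose calcium-binding products link basement membranes and elastic fibres, moved in opposite directions. Fbln2 lay at 10.66 and 10.67 in E79Q cells and at 11.18 and 11.17 in wild-type cells, and fell by 0.51 ± 0.05 (limma adjusted p = 1.77e-06; 1.50-fold lower normalised count). Fbln1 lay at 9.87 and 9.87 in E79Q cells and at 9.61 and 9.61 in wild-type cells, and rose by 0.26 ± 0.06 (limma adjusted p = 0.00265; 1.27-fold higher normalised count). Libraries of 1 genotype were almost equal in both genes, in values whose centring by pair removes part of that spread. Per kb of transcript, the ratio of Fbln1 to Fbln2 was 0.664 and 0.663 in E79Q libraries and 0.348 and 0.349 in wild-type libraries. The rise of Fbln1 was the smallest of the 10 differences, and 10.5% of tested genes had a difference as high or higher. Fbln5, a related fibulin of elastic fibres, was too low to test, with 57.5 and 63.4 normalised counts in E79Q libraries and 61.1 and 55.4 in wild-type libraries.

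**Figure D2:**
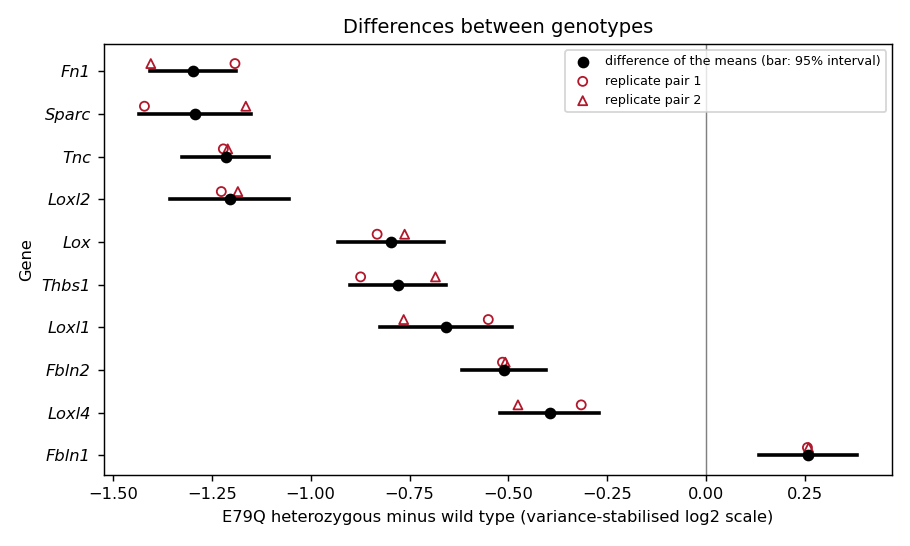
Difference between genotypes (E79Q heterozygous minus wild type, variance-stabilised log2 scale, x axis) for each gene (y axis); black points are differences of the means with their 95% moderated intervals, and open red circles and triangles are replicate pairs 1 and 2. From Fn1 at -1.30 to Loxl4 at -0.40 the intervals lie below 0, and that of Fbln1 lies above 0.

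The crosslinking enzymes also fell, by unequal amounts. Lox encodes lysyl oxidase itself, which crosslinks collagen and elastin. It had 241 and 252 normalised counts in E79Q libraries, against 584 and 565 in wild-type libraries. Lox was lower in both pairs, with a difference of -0.80 ± 0.06 (limma adjusted p = 2.08e-07) and a 2.33-fold lower normalised count.

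Loxl2 encodes an oxidase that crosslinks collagen IV in basement membranes. It had 26.6 and 28.4 normalised counts in E79Q libraries and 247 and 241 in wild-type libraries. By normalised counts this was the largest fall of the 10 genes, 8.87-fold, although the compressed scale shows it as -1.21 ± 0.07 (limma adjusted p = 1.11e-08). The 2 pairs gave ratios of 9.28 and 8.49, and Loxl2 in E79Q cells lay close to the floor.

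Loxl1, which encodes the oxidase required for elastic fibre upkeep in mice, was the lowest of the 10 in mean value. Its normalised counts were 32.4 and 23.4 in E79Q libraries and 105 and 125 in wild-type libraries, 4.12-fold lower in E79Q cells. The pairs differed more here than in Loxl2, with ratios of 3.24 and 5.33, and the difference on the log2 scale was -0.66 ± 0.08 (limma adjusted p = 1.30e-05).

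Loxl4, another oxidase of the Loxl2 subfamily, was the enzyme transcript least changed. It lay at 9.94 and 9.86 in E79Q cells and at 10.25 and 10.33 in wild-type cells. It fell by 0.40 ± 0.06 (limma adjusted p = 9.96e-05), 1.41-fold by normalised counts. Loxl3, the remaining enzyme of the family, was too low to test, with 29.8 and 33.1 normalised counts in E79Q libraries and 54.4 and 50.1 in wild-type libraries.

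Since Loxl4 changed least, it made up more of the lysyl oxidase transcripts in E79Q cells. Per kb of the longest coding transcript, Loxl4 made up 75.2% and 73.9% of the sum of Lox, Loxl1, Loxl2 and Loxl4 in E79Q libraries, against 56.6% and 58.1% in wild-type libraries. Loxl2 made up 1.89% and 2.13% in E79Q libraries and 10.02% and 9.38% in wild-type libraries. Lox itself made up 19.2% and 21.2% in E79Q libraries, against 26.6% and 24.7% in wild-type libraries. These shares follow from the differences above and were not tested on their own. The summed counts of the 4 enzymes were 1.91-fold lower in E79Q cells and those of the 6 glycoproteins 2.27-fold lower, the second mostly through Fn1.

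**Figure D3:**
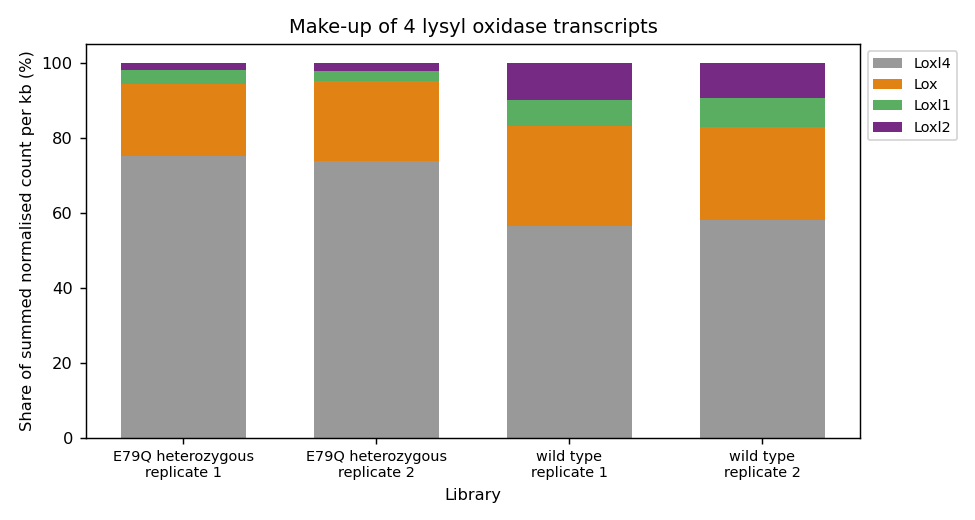
Share of each gene in the summed normalised count per kb of 4 lysyl oxidase genes (y axis, percent) in each library (x axis), E79Q heterozygous on the left and wild type on the right. The grey Loxl4 segment is larger in both E79Q libraries (75.2% and 73.9%) than in both wild-type libraries (56.6% and 58.1%), and the purple Loxl2 segment is smaller.

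The order of levels among the genes also differed between genotypes. In E79Q cells the mean normalised count per kb was highest for Fn1 (898), followed by Fbln2 (289), Loxl4 (192), Fbln1 (191), Thbs1 (171), Sparc (160), Tnc (108), Lox (52.0), Loxl1 (8.45) and Loxl2 (5.17). Loxl4 and Fbln1 did not differ beyond their spread, since their order was not the same in the 2 E79Q libraries. Thbs1 lay above Sparc within each E79Q library, at 164 against 149 and at 178 against 171, although the values overlapped across libraries. In wild-type cells the order was Fn1 (2252), Sparc (527), Fbln2 (432), Thbs1 (322), Tnc (292), Loxl4 (272), Fbln1 (151), Lox (121), Loxl2 (45.9) and Loxl1 (34.8). There, neighbours did not overlap. Sparc stood next to Fn1 in wild-type cells and below Fbln2, Loxl4 and Fbln1 in E79Q cells. Lengths were those of the longest coding transcript in GENCODE M21, and isoforms were not separated. The order of genes with similar values may therefore depend on which isoform is made.

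**Figure D4:**
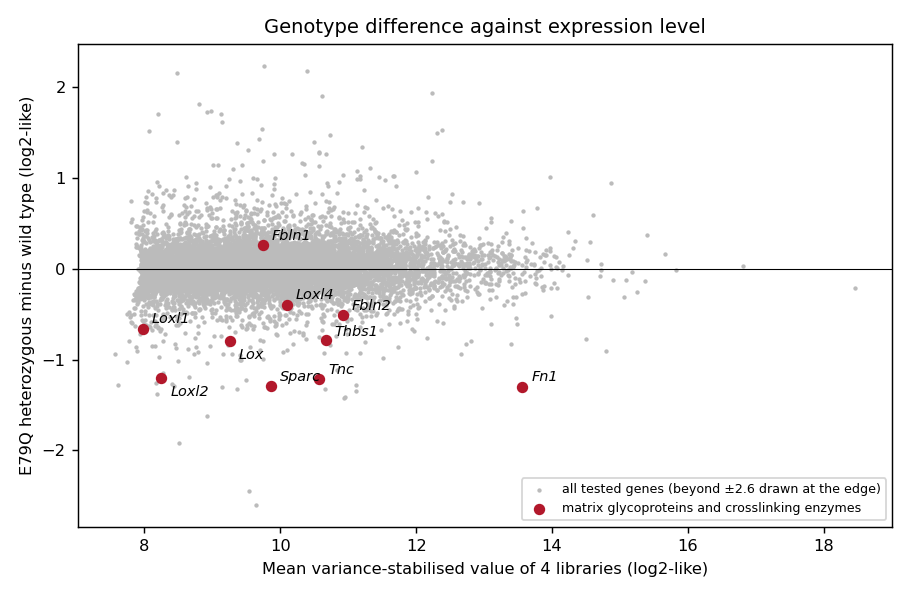
Difference between genotypes (E79Q heterozygous minus wild type, log2-like, y axis) against the mean deposited value of 4 libraries (x axis); grey points are all 10685 tested genes and red points the 10 genes named. Fn1 stands apart as a highly expressed gene with a difference of -1.30, and Loxl4 and Fbln1 lie closest to the main cloud.

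Other matrix glycoproteins were lower more often than higher. Of the 49 on the list, 17 were tested, and 9 were called lower and 1 higher, against 18.9% and 21.5% of all tested genes. Of the 9 called lower, 2 passed the filter only through wild-type libraries. The median difference was -0.21, against 0.01 over all tested genes. The largest fall was in Wisp1, a matricellular protein of the CCN family (-1.001 ± 0.063, 2.77-fold lower normalised count). Ltbp1, which tethers latent TGF-beta to the matrix, fell by 0.79 ± 0.06, Igfbp7, a secreted binding protein of basement membranes, by 0.76 ± 0.05, and Efemp2, a fibulin required for elastic fibres, by 0.55 ± 0.07. Fbn1, the microfibril protein fibrillin 1, differed by -0.68 ± 0.07 and is, with Nid2, one of the genes that passed only through wild-type libraries. Against the direction of the others, Ltbp4, a second latent TGF-beta binding protein, rose by 0.65 ± 0.06 (1.85-fold). The remaining 4 called genes fell by between 0.21 and 0.50. Ctgf, another CCN family member, was not called (-0.02 ± 0.06), and its 95% interval ran from -0.15 to 0.11.

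The proteoglycans were mostly too low to test. Of 15 on the list, 3 were tested and all 3 were called lower, against 18.9% of all tested genes. Vcan, the large chondroitin sulphate proteoglycan versican, fell by 0.86 ± 0.07 (3.04-fold). Hspg2, the basement membrane proteoglycan perlecan, fell by 0.61 ± 0.04 (1.54-fold), and Agrn, agrin, by 0.25 ± 0.04. The median of these 3 was -0.61. With no filter 13 were tested, with 4 called lower and 2 higher, against 11.2% and 12.3% of 16324 genes. Bgn, too low for the filter, had 32.0 and 44.3 normalised counts in E79Q libraries and 10.4 and 5.09 in wild-type libraries. Prelp, also too low, had 0.752 and 0.00674 in E79Q libraries and 8.24 and 13.4 in wild-type libraries. Dcn and Lum, proteoglycans of fibrous connective tissue, were at or near the floor, with Dcn at 10.8 and 10.7 normalised counts in E79Q libraries and none in wild-type libraries, and Lum at the floor in all 4.

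Tested genes on the list of collagen-modifying and processing enzymes shifted less. Most of these modify, chaperone or cleave collagen before crosslinking. Tgm1 and Tgm2, also on the list, are transglutaminase genes, and neither was called (-0.02 ± 0.05 and 0.14 ± 0.06). Of 27 on the list 18 were tested, with 8 called lower and 2 higher, against 18.9% and 21.5% of all tested genes, and a median of -0.11. Serpinh1, the collagen chaperone HSP47, fell by 0.58 ± 0.04 (1.52-fold), and Plod2, the lysyl hydroxylase that prepares collagen telopeptides for crosslinking, by 0.55 ± 0.06 (1.61-fold). P3h2, a prolyl 3-hydroxylase of basement membrane collagen, rose by 0.69 ± 0.07 (2.48-fold). Bmp1, the protease that removes the propeptides of procollagen and of lysyl oxidase, fell by 0.36 ± 0.05 and is named here after its value was seen. The related protease gene Tll1 passed the filter only through wild-type libraries. Adamts2, also on the list, was too low to test. It had 3.71 and 6.30 normalised counts in E79Q libraries and 67.3 and 57.6 in wild-type libraries, a 12.5-fold lower mean.

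Among receptors of these ligands, 13 of 19 on the list were tested, and 5 were called lower and 3 higher, against 18.9% and 21.5% of all tested genes. The number called higher was near that background share, and the median was -0.07. Sdc3, a heparan sulphate proteoglycan of the cell surface, fell by 0.70 ± 0.06 (2.05-fold), and Lrp1, an endocytic receptor that takes up thrombospondin, by 0.52 ± 0.05 (1.49-fold). The 3 called higher rose by between 0.18 and 0.27. Itga5 and Itgb1, the subunits of the classical fibronectin receptor, were not called, at 0.01 ± 0.06 and -0.07 ± 0.05, with 95% intervals from -0.11 to 0.13 and from -0.17 to 0.02. Both were picked for naming once their values were known.

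**Figure D5:**
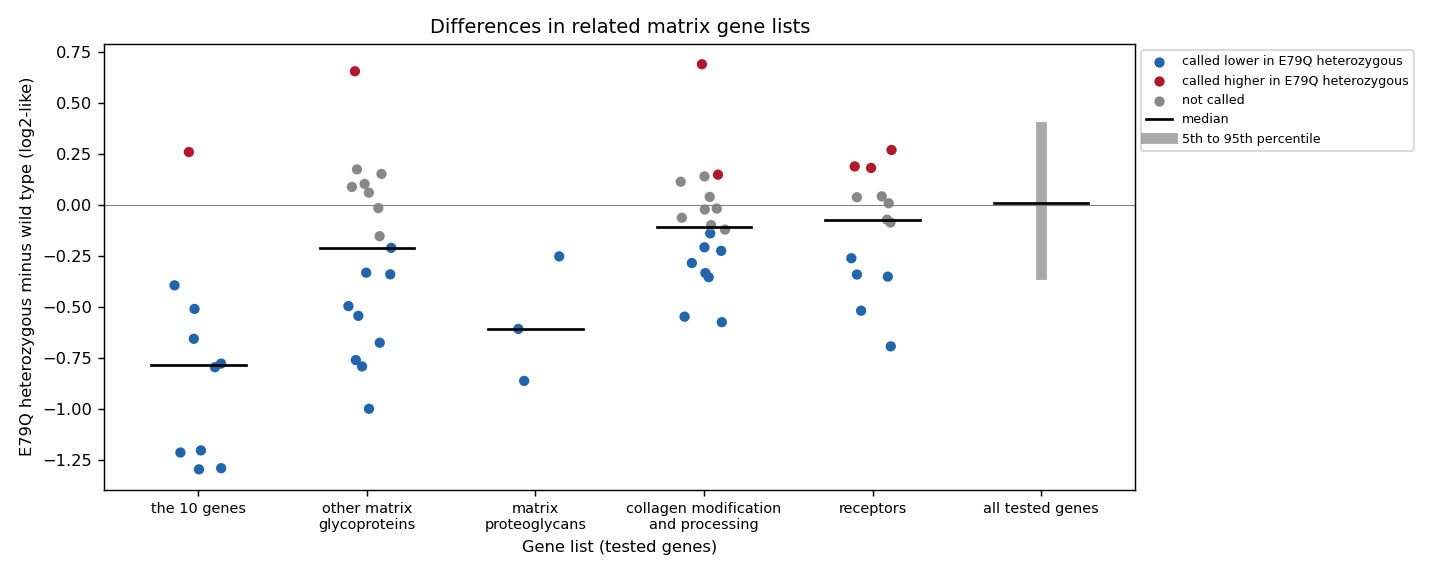
Difference between genotypes (E79Q heterozygous minus wild type, log2-like, y axis) of each tested gene in the 10 genes and 4 related lists (x axis); blue points were called lower, red higher and grey were not called, black lines are medians, and the grey bar spans the 5th to 95th percentile of all tested genes. The medians run from -0.79 for the 10 genes to -0.07 for the receptors.

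Summed levels of mesenchymal markers were lower in E79Q libraries, mostly through a few genes. Summed over the 18 fibroblast markers, normalised counts were 339 and 374 in E79Q libraries and 1414 and 1361 in wild-type libraries. Of the list, 4 were tested and 3 of these were called lower, against 18.9% of all tested genes. They were Vim, vimentin (-1.62 ± 0.07), and Col1a1 and Col6a1, which passed the filter only through wild-type libraries. Twist1 was tested and not called (-0.17 ± 0.07), with 103 and 109 normalised counts in E79Q libraries and 142 and 135 in wild-type libraries. Vim was the largest part of the wild-type sum, with 78.8 and 83.8 normalised counts in E79Q libraries and 626 and 606 in wild-type libraries. With no filter, 14 of the list were tested, with 4 called lower and 1 higher, against 11.2% and 12.3% of 16324 genes. Lum, Dpt, Pi16 and Tcf21 were at the floor in all libraries. Pdgfra, the receptor that marks many fibroblasts, had 7.07 and 9.27 normalised counts in E79Q libraries and 11.1 and 8.68 in wild-type libraries, and Pdgfrb, a related receptor, had 7.31 and 13.9 in E79Q libraries and 13.2 and 6.81 in wild-type libraries. Dcn, given above, and Thy1, a surface glycoprotein of fibroblasts, were higher in both E79Q libraries at very low levels. Thy1 had 6.73 and 4.26 normalised counts in E79Q libraries and 0.218 and 0.989 in wild-type libraries. Of the other markers too low to test, Twist2 and Fap overlapped between genotypes. Twist2 had 2.03 and 5.14 normalised counts in E79Q libraries and 7.76 and 3.76 in wild-type libraries. Fap had 1.56 and 0.155 in E79Q libraries and 0.997 and 3.45 in wild-type libraries. Col6a2, Col1a2, Col3a1 and S100a4 were lower in both E79Q libraries. Col6a2 had 4.61 and 7.29 normalised counts in E79Q libraries and 57.1 and 48.7 in wild-type libraries. Mean normalised counts of Col1a2, Col3a1 and S100a4 were 1.62-, 1.70- and 1.82-fold lower in E79Q cells.

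Smooth muscle markers summed to 327 and 301 in E79Q libraries and to 987 and 1036 in wild-type libraries. Of 7 markers 2 were tested, and both were called lower, against 18.9% of all tested genes. Acta2 fell by 1.23 ± 0.06 and Tagln by 0.61 ± 0.07, the second having passed the filter only through wild-type libraries. Acta2 alone made up most of the sum, with 259 and 250 normalised counts in E79Q libraries and 859 and 880 in wild-type libraries. The other 5 were too low to test; of these, Myh11 had 4.28 and 5.59 counts in E79Q libraries and 1.34 and 0.743 in wild-type libraries, and Des had 4.04 and 2.90 in E79Q libraries and 0.132 and 0.448 in wild-type libraries, both higher in E79Q cells. Lmod1 had 11.4 and 7.28 counts in E79Q libraries and 4.82 and 8.26 in wild-type libraries, which overlap. Actg2 also overlapped, with 5.83 and 3.57 counts in E79Q libraries and 4.43 and 6.92 in wild-type libraries. Cnn1 was lower in E79Q cells, with 7.65 and 1.92 counts against 9.20 and 19.6 in wild-type libraries. The 8 endothelial markers summed to 18.8 and 12.1 counts in E79Q libraries and 20.8 and 31.6 in wild-type libraries, with none tested and Emcn and Cldn5 at the floor. Of 8 leukocyte markers only Cd68, also a lysosomal gene, was tested, and it rose by 0.67 ± 0.07, while Ptprc, Adgre1 and Cd3e were at the floor; the list summed to 377 and 415 in E79Q libraries and 190 and 168 in wild-type libraries. Among the 12 squamous markers 4 were lower, 4 higher and 4 not called, against 18.9% and 21.5% of all tested genes called lower and higher. Their counts summed to 159042 and 165810 in E79Q libraries and to 164413 and 157860 in wild-type libraries. In bulk RNA, fewer cells of a type and less RNA per cell cannot be told apart, and the part of the mesenchymal markers in the matrix differences was not tested.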

How the data were processed

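The deposited values are variance-stabilised log2 values, 1 per gene and library; the name of the deposited file calls them VST. Per the submitters' processing notes, the tools were DESeq2, DESeq 1.22.2, STAR 2.5.2b and Salmon 0.11.3, without their roles, and the build was mm9. No label or header states the annotation or the strand setting. The series' design text names a human line and conflicts with its title and labels, which were followed.

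In all 24444 genes the sums of the 2 replicate numbers were equal to within 1.31e-13. The deposited values had thus been centred on the replicate number, which pairs the libraries, although the labels record no such step. The fit was therefore genotype with a replicate block, which leaves 1 residual degree of freedom per gene.

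A gene was tested if 2 or more libraries were at least 1 above the floor, which left 10685 genes. The fit was made with limma 3.58.1 (R 4.3.3), a mean-variance trend, two-sided tests and Benjamini-Hochberg adjustment over all tested genes. Each gene borrows most of its precision from the others, through a prior of 13.3 degrees of freedom with a median SD of 0.0597. An exact test of 2 pairs cannot give a two-sided p under 0.5. Normalised counts were recovered by inverting the parametric stabilisation from its floor of 6.98; values below the floor became 0. They are approximate, since the values were centred first. The steps were tested on simulated data.

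The members and lists were chosen with earlier results of these data known. All 10 members are described. Of each related list, called genes with an absolute difference of at least 0.5 are named, at most the 6 largest in each direction. Agrn, Ctgf, Bgn, Prelp, Adamts2 and any other list genes outside that rule were named with their values known. Cyr61 and Ctgf were matched through older symbols. Alternatives changed the block, filter, scaling, variance prior, scale or libraries.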

Additional observations from a re-analysis of the deposited data

How the results depend on the processing

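The 10 genes kept their direction and their call in all 137 fits of an alternative in which they were tested, with adjusted p (limma) at most 0.00901. Those alternatives were no replicate block, no filter, a stricter filter, a filter on the mean of the 4 libraries (chosen after seeing the data), median centring, quantile normalization, no trend, a robust prior, log2 of the inverted count plus 1 or 10, and each library left out. Loxl1 and Loxl2 were not tested under the stricter filter, nor Loxl1 under the filter on the mean. Without a library, the fit was genotype alone, and the lone library was assumed to vary like the others. A change of block, filter, trend or prior leaves each difference as it was, so only the adjusted p could move. Leaving out a library could not turn a direction either, since the groups did not overlap in any of the 10 genes. In centred values, leaving out replicate 1 of either genotype gave the same difference, as did replicate 2. The 137 fits are therefore not separate checks.

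With no replicate block, 9 of the 10 genes were again lower and 1 higher, while 2844 genes in all were called lower, against 2017. As the values were already centred, that fit counts a residual degree of freedom that the centring had used. Its p-values and numbers of calls are therefore not on the footing of the main fit. The fits with a library left out, of genotype alone, share this limit. Without the block 4 collagen-modifying genes were called higher, against 2, and 2 other glycoproteins, against 1. On the log2 scales of inverted counts the median difference of the 10 genes was -1.27 with a pseudocount of 1 and -1.26 with 10, against -0.79 on the deposited scale. The pseudocount itself shrinks low genes: Loxl2 differed by -3.10 with 1 and by -2.76 with 10, and Loxl1 by -2.02 and -1.73. Read as plain log2 ratios, the stabilised differences would give folds of 2.45 for Sparc, 2.32 for Tnc, 1.43 for Fbln2, 1.74 for Lox, 1.58 for Loxl1 and 2.31 for Loxl2, all lower in E79Q cells, and 1.20 higher for Fbln1.

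Small counts of list genes moved by over 1.5 times. Collagen-modifying genes called lower numbered 4 under the stricter filter. Those called higher numbered 1 with no filter, with quantile normalization and with no trend, and 4 with any single library left out. Other glycoproteins called higher numbered 2 with no filter and 2 to 3 with a library left out: 2 without replicate 1 of E79Q or of wild type, and 3 without replicate 2 of either. Proteoglycans called higher numbered 2 with no filter, against 0.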
